A study of [Candida] boidinii with 12 samples.

Results

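The methanol response of a gene is the log2 change of its messenger RNA from glucose to methanol medium. The difference of responses described here is the response of LA001-14 minus the response of wild type, taken from all 12 libraries of the series (12 of 12), so a positive value means that a gene stood higher on methanol, relative to glucose, in LA001-14 than in wild type. It was measured for 5712 coding sequences of the yeast Candida boidinii, and 5466 of them had enough reads to be tested.

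The 4 groups were the wild type CICC#33029 on glucose, the same wild type on methanol, LA001-14 on glucose and LA001-14 on methanol, with 3 libraries in each. Per the labels, cells were taken at 6 h in YPD with 2% (w/v) glucose or in YPM with 2% (w/v) methanol. LA001-14 is a lactic acid producer made from the same wild type: it carries the LDH cassette PENO1-BtL-LDH-TTEF2 and the KanR cassette PTDH3-KanR-TTEF2 at random chromosomal sites. It is 1 derived strain, so effects of the cassettes, of the sites they landed in and of anything else that changed while the strain was made cannot be told apart. Replicates are labelled biological, but whether each was its own culture is not stated. The p-values therefore set a difference only against the variation among these libraries, which may be technical.

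Methylotrophic yeasts oxidise methanol to formaldehyde with a peroxisomal alcohol oxidase. Part of the formaldehyde is fixed into sugar phosphates by dihydroxyacetone synthase, and part is oxidised to carbon dioxide through formaldehyde and formate dehydrogenases. The genes of this pathway are known to be repressed by glucose and strongly induced by methanol. Lactate dehydrogenase draws on pyruvate, the end product of glycolysis. The question put to the data is which genes answered methanol differently in the engineered strain. The files give the native genes by identifier alone and pair none of them with a name, so no native gene here is given a function, and a pair of identifiers in each direction is shown.

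Total counts per library ranged from 8045977 to 14107813. LDH separated the strains as labelled: it had between 16132 and 76402 reads in each LA001-14 library, no read in 5 of the 6 wild-type libraries and 1 read in the other. With 1 read over the wild-type libraries LDH has no wild-type response, and no log2 difference of responses is reported for it. The library that stood apart most from its group was wild type on glucose replicate 1, whose counts differed from those of its 2 fellow replicates with a chi-square per degree of freedom of 25.03 and 32.3, against 4.03 to 13.3 for all other replicate pairs. Counts below without it are given as a check.

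The methanol responses differed between the strains for most genes, in both directions. Of 5466 genes tested, 1681 responded more positively in LA001-14 and 1525 more negatively, which together are 58.7% of the genes (30.8% and 27.9%; edgeR quasi-likelihood test of the interaction, Benjamini-Hochberg adjusted p under 0.05). The balance of the directions depended on the scaling: upper quartile scaling gave 1849 positive and 1358 negative calls, library totals 1752 and 1323, RLE scaling 1601 and 1622, and DESeq2 1616 and 1636. The difference was called and at least 2-fold for 685 genes in the positive and 698 in the negative direction, 25.3% of all genes. Which direction held more of these genes also depended on the scaling. The middle of the distribution lay near 0, with a median of 0.02 on the log2 scale and a lower and upper quartile of -0.54 and 0.58. The median size of the difference, sign set aside, was 0.56 on the log2 scale, against a median standard error of 0.17 from the spread between replicates. Without wild type on glucose replicate 1 the calls were 1598 in the positive and 1597 in the negative direction, 3195 in all. At least 2-fold they were then 641 and 730, and the median difference was -0.016.

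**Figure D1:**
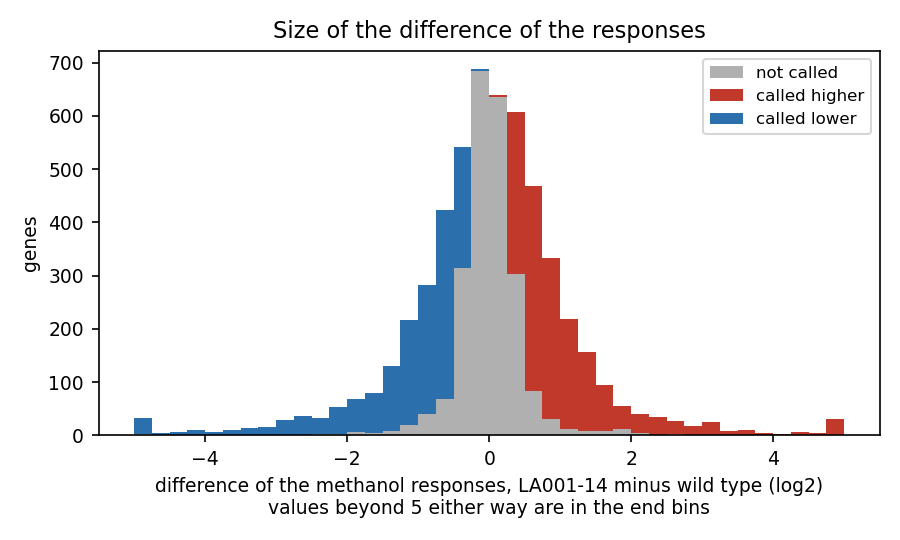
Number of native genes (vertical axis) by the log2 difference of the methanol responses, LA001-14 minus wild type (horizontal axis, bins of 0.25), with genes called higher in red, called lower in blue and not called in grey. With TMM scaling, as plotted, there are 685 genes at least 2-fold higher and 698 at least 2-fold lower among the called.

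A small number of genes differed by far more than the rest. The called difference was at least 4-fold for 442 genes (201 positive, 241 negative), at least 16-fold for 95 (44 and 51) and at least 64-fold for 33 (10 and 23). Fitted folds of that size rest in part on groups with almost no reads: 31 of the 95 and 13 of the 33 genes had 3 reads or fewer in some group, where the fitted value is no bound on the true fold. The library values separated for most called genes. In 2735 of the 3206 called genes (85.3%), each of the 9 methanol-minus-glucose differences between LA001-14 libraries lay on the called side of all 9 between wild-type libraries. Of all genes tested, called or not, 51.4% showed such a separation. The calls were made on the same libraries, so the separation describes the called genes and adds no support. Among the 1383 genes called at least 2-fold, the library differences did not overlap for 1314 (24.0% of all genes tested).

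The largest positive difference among genes with at least 10 CPM (reads scaled to a common library size, with TMM factors) in every group belonged to CB2566.t1, which has a coding length of 1647 bases. In wild type it stood at 3664, 3451 and 4298 CPM in the 3 glucose libraries and at 38.6, 33.7 and 36.5 CPM in the 3 methanol libraries. In LA001-14 it stood at 3219, 2891 and 3134 CPM on glucose and at 10513, 9956 and 9893 CPM on methanol. The strains differed little on glucose, and all LA001-14 methanol libraries lay above, and all wild-type methanol libraries below, every glucose library. The fitted response was a 105-fold fall in wild type and a 3.28-fold rise in LA001-14, and the log2 difference of the responses was 8.43 (SE 0.12, edgeR adjusted p = 2.99e-23).

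CB0970.t1, with a coding length of 1602 bases, had the largest negative difference under the same minimum of 10 CPM in every group, and its strains changed places between the carbon sources. Wild type held 70.6, 66.3 and 82.4 CPM on glucose and 2028, 1999 and 1915 CPM on methanol. LA001-14 held 2008, 1935 and 1859.9 CPM on glucose and 282, 280.5 and 266 CPM on methanol. The LA001-14 glucose level and the wild-type methanol level lay close to each other (1934 ± 73.8 and 1981 ± 58.6 CPM, SD, n = 3 each). CB0970.t1 rose 27.1-fold in wild type and fell 7.01-fold in LA001-14, a log2 difference of -7.57 (SE 0.11, edgeR adjusted p = 1.80e-23).

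The other pair of identifiers are those whose levels, in CPM rather than in folds, differed most in their responses. CB2421.t1, with a coding length of 2121 bases, had 11, 0 and 11 reads in the wild-type glucose libraries and reached 94071, 99668.5 and 95124.5 CPM on methanol. In LA001-14 it had 1 read in each glucose library and 163, 115 and 127 CPM on methanol. It therefore rose in both strains, but the wild-type methanol libraries stood far above those of LA001-14. From reads summed over each group, the wild-type rise was 128998-fold (95% exact counting interval 85202 to 205839) and the LA001-14 rise 1397-fold (478 to 6776). These intervals cover counting error alone and leave out variation between libraries, so they are no test of the strain difference. The fitted log2 difference of CB2421.t1 was -6.71 (edgeR adjusted p = 0.00667), and it rests on 22 wild-type and 3 LA001-14 glucose reads. The standard error of 0.91 comes from log2 CPM with small counts damped, so it is not the precision of that fitted value. In limma-voom the difference was -7.90, with a 95% interval of -10.6 to -5.20. The mean response differed by -96152.5 CPM between the strains.

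CB0826.t1, with a coding length of 1002 bases, showed the largest positive difference in CPM and a modest one in folds. In wild type it stood at 41964, 56035 and 59850.1 CPM on glucose and at 9694, 9359.6 and 9485 CPM on methanol. In LA001-14 it stood at 32829, 29509 and 26416 CPM on glucose and at 16100.5, 13003 and 14491 CPM on methanol. Neither strain overlapped between carbon sources, and the strains did not overlap on either carbon source. It fell 5.53-fold in wild type and 2.04-fold in LA001-14, so the log2 difference of 1.44 (SE 0.20, edgeR adjusted p = 8.65e-08) is a weaker fall, not a rise. The mean response differed by 28050.8 CPM.

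**Figure D2:**
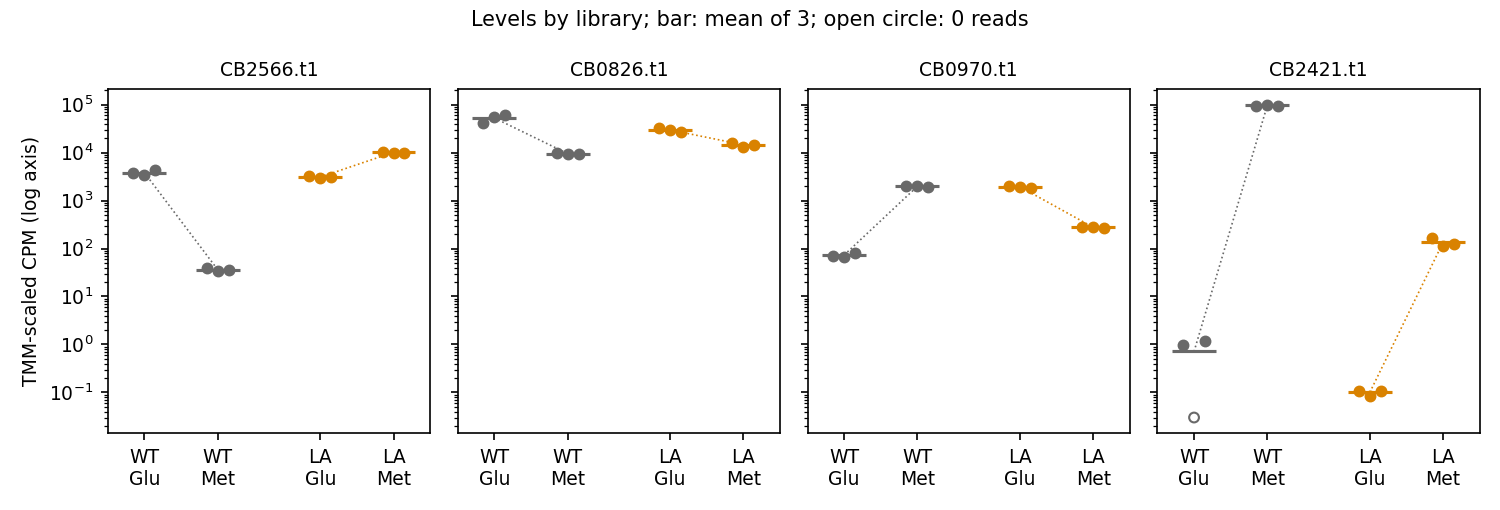
Level in TMM-scaled CPM (vertical axis, log scale) of the identifiers CB2566.t1, CB0826.t1, CB0970.t1 and CB2421.t1 in each library of wild type (WT, grey) and LA001-14 (LA, orange) on glucose (Glu) and methanol (Met), where points are libraries, bars are means of 3 and the open circle is a library with 0 reads. The dotted lines run in opposite directions in the strains for CB2566.t1 and CB0970.t1, and in the same direction with unequal slope for CB0826.t1 and CB2421.t1.

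The called differences took several forms, which were sorted by whether each strain's own response passed the same test. In the same fit 70.3% of all genes responded in wild type and 64.5% in LA001-14. The sorting uses the same libraries as the difference itself, so the counts are a description. The most common form was a response called in wild type alone, with 871 of the 3206 genes (27.2%), split into 427 positive and 444 negative differences. A response called in LA001-14 alone accounted for 597 genes (18.6%). A response called in 1 strain alone does not show that the other strain did not respond; here the difference itself passed the test.

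Opposite responses made up 683 of the called differences (21.3%), and they were the most common form among large ones, with 486 of the 1383 genes at least 2-fold (35.1%). Responses of opposite sign add up in the difference, so cuts on its call and its size favour this form. Every gene with opposite called responses also had a called difference. The 683 stand among 5466 genes tested. Of the 683, 394 showed a fall in wild type and a rise in LA001-14, with a median log2 response of -0.60 and 0.54. The other 289 showed a rise in wild type and a fall in LA001-14, with a median of 0.89 and -0.59. Both responses were at least 2-fold for 36 of the 394 and 40 of the 289. CB2566.t1 and CB0970.t1 belong to these groups.

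Among called differences with both responses in the same direction, the smaller response was more often that of LA001-14. The LA001-14 response was smaller for 649 called genes (20.2% of the called) and larger for 367 (11.4%). Among genes at least 2-fold different the counts were 274 and 80. Many same-direction genes had no called difference: 501 of the 1023 that rose in both strains and 463 of the 957 that fell in both. Their median log2 responses in wild type and LA001-14 were 0.61 and 0.59 for the rising genes. For the falling genes they were -0.87 and -0.89. For the 344 genes that rose in both strains and rose less in LA001-14, the median log2 response was 1.59 in wild type and 0.60 in LA001-14. For the 305 that fell in both and fell less in LA001-14, it was -1.61 and -0.68. For the 178 that rose more in LA001-14 it was 0.39 and 0.96, and for the 189 that fell more there it was -0.72 and -1.51. Leaving out genes with 3 reads or fewer in some group moved the median size of the difference among smaller LA001-14 responses from 0.87 to 0.83 on the log2 scale. A further 39 genes passed the test of the difference although neither strain's response was called.

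**Figure D3:**
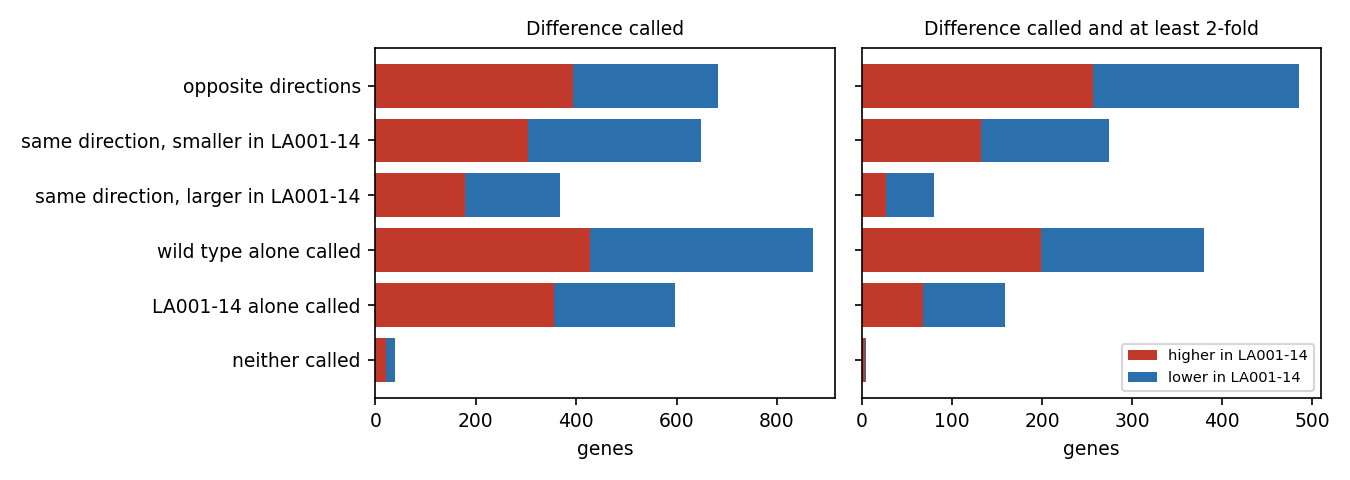
Number of genes (horizontal axis) by form of the difference, for all 3206 called genes (left) and for the 1383 at least 2-fold (right), with positive differences in red and negative ones in blue. Opposite responses are the longest bar on the right (486 genes), and a response called in wild type alone the longest on the left (871).

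**Figure D4:**
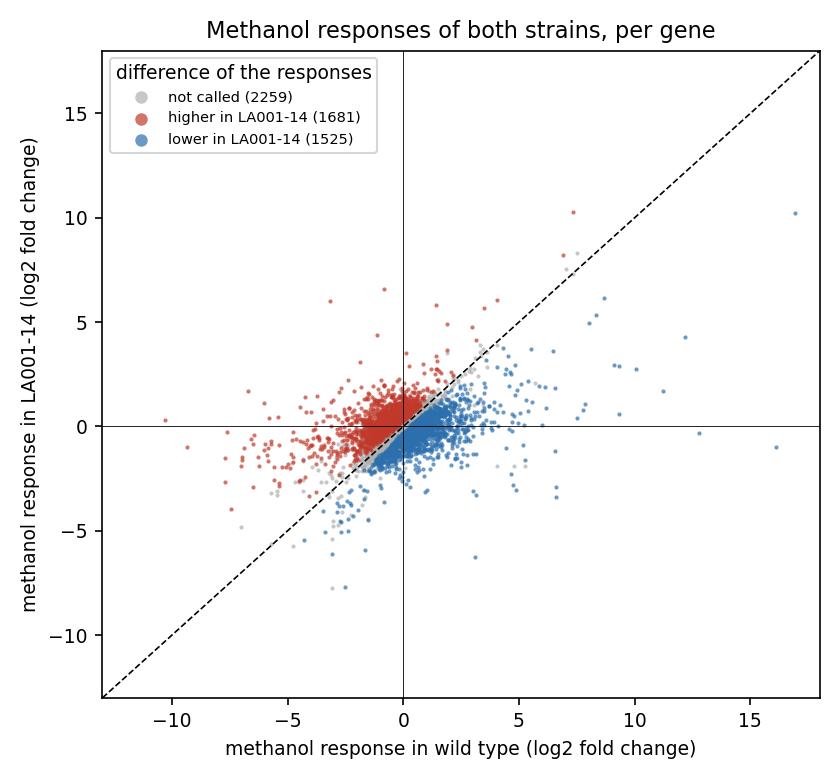
Methanol response in LA001-14 (vertical axis) against that in wild type (horizontal axis), both as log2 fold change, for every native gene tested, coloured by the call of the difference, with the dashed line marking equal responses. Genes at the far right, such as CB2421.t1 with a wild-type value of 16.95, lie below the line, and red and blue points fill the quadrants of opposite responses.

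The same difference can be read as a strain gap (LA001-14 over wild type) that changes with the carbon source. The gap was called for 62.6% of all genes on glucose and for 65.7% on methanol. Among the 1383 genes at least 2-fold different in their responses, 633 (45.8%) had called gaps of opposite sign on the carbon sources, so that the strain with more transcript on glucose had less on methanol. The gap was called on methanol alone for 326 (23.6%) and on glucose alone for 216 (15.6%), and 199 (14.4%) had called gaps of the same sign but unequal size. Choosing genes by a large difference of responses favours gaps of opposite sign. Among all 3206 called genes, 869 (27.1%) had them. Among the 1383 genes the median size of the gap was 0.75 on glucose and 1.02 on methanol (log2), and the methanol gap was the larger for 818 (59.1%). Among all 3206 called genes the methanol gap was the larger for 1752 (54.6%). For negative differences of at least 2-fold the methanol gap was the larger in 62.6%, with a median of 1.12 against 0.72 on glucose. For positive ones it was the larger in 55.6%, with 0.92 against 0.78. CB2566.t1 and CB0970.t1 are both among the 633: the log2 gap was -0.30 on glucose and 8.13 on methanol for CB2566.t1, and 4.73 and -2.84 for CB0970.t1.

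The differences were spread over all levels of expression, with a lean to the positive side among the most abundant transcripts. Genes were divided into 5 classes of equal size by mean CPM per kilobase of coding length over the 4 groups. In the highest class (110.8 CPM per kilobase and above, 1093 genes), 51.1% were called positive and 26.6% negative, and the median difference was 0.34 on the log2 scale. In the next class down the shares were 31.0% and 33.9%, followed by 26.1% and 29.7%, 23.1% and 29.8%, and 22.5% and 19.5% in the lowest. Under the other scalings tried, between 50.2% and 54.1% of the highest class were positive. Precision moves with these shares: the median standard error went from 0.38 in the lowest class to 0.12 in the highest, while the share of genes called at least 2-fold was similar at both ends (30.4% and 31.8%). By coding length, positive calls outnumbered negative ones in the shortest of 5 length classes (up to 786 bases, 33.1% against 23.9%) and in the longest (2592 bases and above, 38.1% against 22.5%), and not in the classes between. The part of depth, or of anything else that goes with level or length, in these shares was not tested.

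**Figure D5:**
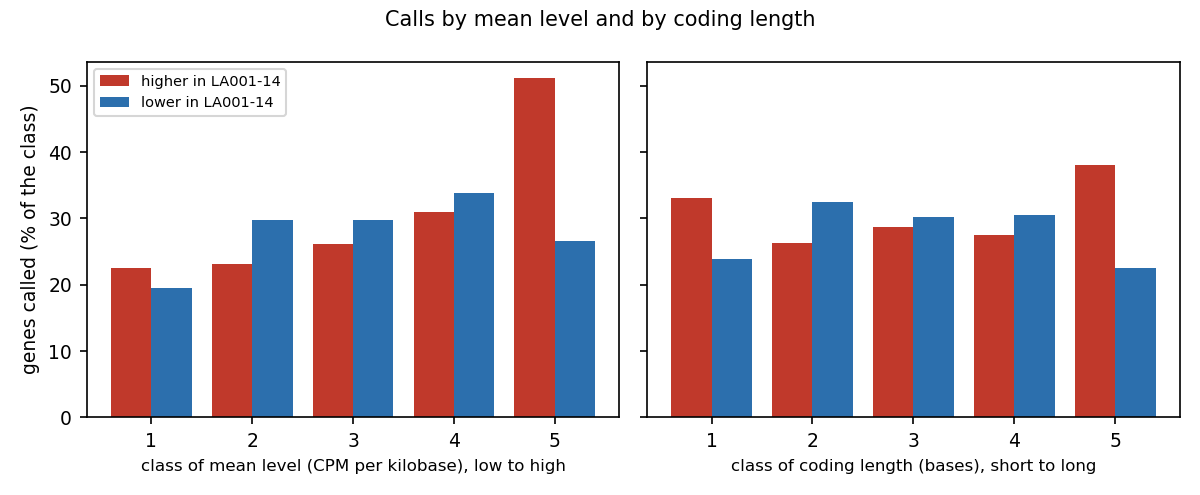
Share of genes called (vertical axis, percent of the class) by class of mean level per coding length (left) and of coding length (right), with 5 classes of equal size each, with positive differences in red and negative ones in blue. The highest level class stands out with 51.1% positive calls against 26.6% negative.

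Measured in reads, the negative differences were concentrated in few genes and the positive ones were spread out. The difference of responses was also taken on each gene's share of all counts in its library, a quantity that sums to 0 over genes. The genes with a negative value summed to -39.7 percentage points, and 13 of them held 50% of that sum. CB2421.t1 alone accounted for -8.45 points, or 21.3%, and the first 10 genes for 46.6%. On the positive side 54 genes were needed for 50%, and the first 10 held 25.2%. These are values of group means, and leaving out any 1 library gave 13 genes on the negative side and 49 to 58 on the positive.

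The genes called at least 2-fold took very different parts of the reads in the groups, as a description of genes chosen on these libraries. The 698 with negative differences held 5.29% to 5.48% of the counts in wild type on glucose and 31.2% to 32.1% on methanol, while in LA001-14 they held 10.4% to 10.7% and 7.25% to 7.38%. The 685 with positive differences went from 37.8% to 40.3% of counts in the wild-type glucose libraries down to 14.2% to 14.6% on methanol, and in LA001-14 they went from 27.4% to 28.3% up to 29.1% to 30.1%. The 2260 genes that were not called, LDH among them, held between 16.1% and 19.9% of the counts in every library.

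Measures of whole libraries, which were not chosen on the difference, are given as values beside the test fixed for them, which has the limit stated below. The 20 genes with the most reads in a library held 25.05% ± 1.65 of counts in wild type on glucose and 28.04% ± 0.416 on methanol, and 22.1% ± 0.919 and 19.6% ± 0.523 in LA001-14 (SD, n = 3 each). Each of the 9 methanol-minus-glucose differences between libraries was positive in wild type (1.22 to 5.26 percentage points) and negative in LA001-14 (-3.84 to -0.985), and the difference of the mean responses was -5.44 points. The introduced LDH was not left out of these measures. It held 0.74% to 0.84% of counts in LA001-14 on glucose and 0.19% to 0.21% on methanol. Its part in the -5.44 points was not tested. The number of genes holding 50% of the reads went from 137 ± 19.9 to 131 ± 3.61 in wild type and from 179 ± 14.2 to 204 ± 15.4 in LA001-14 (difference 30.7 genes), and the library differences of the strains overlapped (-31.0 to 14.0 and -3.0 to 54.0). The number of genes detected, thinned to the lowest library total, went from 5583 ± 4.44 to 5506 ± 5.08 in wild type and from 5581 ± 9.39 to 5532 ± 4.14 in LA001-14 (difference 27.1 genes), with library differences of -85.1 to -67.0 and -63.3 to -36.3 that did not overlap. In the two-sided exact permutation test the adjusted p over the 3 measures was 0.255 for the share of the 20 genes, 0.47 for the genes holding 50% and 0.135 for the genes detected. That test moves strain labels within each carbon source, so a strain gap common to both carbon sources widens its spread, and its p-values do not show that the responses were alike.

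For part of the genes the responses of the strains could be shown to lie within stated bounds of each other. Of the 2260 genes whose difference was not called, 1023 had a 95% interval (limma-voom) wholly inside 1.5-fold either way, and 1692 inside 2-fold. For 568 uncalled genes even a 2-fold difference lay within the interval, so for them neither a difference nor its absence is shown. Over all genes tested, 1140 (20.9%) were bounded within 1.5-fold and 2754 (50.4%) within 2-fold, and 1062 of the latter were called, that is, different by a small amount. Strong responses were among them: 97 genes bounded within 1.5-fold had changed at least 2-fold in the same direction in both strains, 37 of them rising and 60 falling on methanol.

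Genes with no read in a whole group were rare among those tested. Beside the 58.7% called over all genes, 10 of the 13 with no read in wild type on methanol alone had a called difference, and 1 of the 6 with none in LA001-14 on methanol alone. Such genes passed the read filter only through their reads in other groups, so these counts are a description and no result about a group. Their fitted value is no bound on the true fold. The 2 with none in wild type on glucose alone were LDH, which was not called, and 1 native gene, which was. No tested gene was without reads in LA001-14 on glucose. The 246 coding sequences that were not tested had at most 93 reads over all 12 libraries and together 0.0049% of all reads.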

How the data were processed

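Each deposited file holds 1 library with raw read counts per coding sequence and FPKM values, per the file headers. The authors' counts are whole numbers without normalization, and the authors' FPKM values are those counts per coding length and per library total, which held to within 2.4e-06 percent; FPKM was not tested. The submitters' processing notes name Bowtie2 2.5.4. For the read counter, the strand setting, the build and the gene models the entry is: not given in the sources used here. Reads shared by near-identical or overlapping genes therefore cannot be assessed.

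Rows kept by filterByExpr (5466 of 5712) were scaled by TMM and fitted with edgeR 4.0.16 (R 4.3.3, robust quasi-likelihood, 1 mean per group, all 12 libraries; common biological coefficient of variation 0.0938). The contrast was (LA001-14 methanol minus glucose) minus (wild type methanol minus glucose), called at an adjusted p under 0.05. Standard errors were computed from log2 CPM (prior count 2) as the variation among a group's libraries, and not from the edgeR fit. Intervals of 95% for bounded differences come from limma-voom (limma 3.58.1), and counting intervals are exact (Clopper-Pearson) and cover counting error only. The test was checked on simulated counts in which a small part of the genes changed, in 1 group only. Most genes were called in these data, so the check does not cover that setting.

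Identifiers shown: per direction, the called gene with the largest log2 difference among those with at least 10 CPM in every group, and the called gene with the largest difference of responses in CPM. The test, this rule and the groupings were chosen with earlier results of these data known. DESeq2 1.42.0, limma-voom, other scalings and filters, tests against a minimum fold, a replicate block and leaving out each library were alternatives. The labels name no batch. Genes detected were the number expected at 8045977 reads, the lowest total.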

Additional observations from a re-analysis of the deposited data

Results flagged for a closer look

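The methanol response differed between the strains by a test of the difference itself (edgeR interaction, adjusted p under 0.05) for 1681 genes that were higher and 1525 that were lower in LA001-14. The identifiers shown above were chosen for the size of their difference, in folds or in CPM, among called genes. The log2 difference was 8.43 for CB2566.t1, with an adjusted p of 2.99e-23, and 1.44 for CB0826.t1, with 8.65e-08. It was -7.57 for CB0970.t1, with an adjusted p of 1.80e-23, and -6.71 for CB2421.t1, with 0.00667. Groups of 3 libraries are too small for a test of single outlying libraries.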

How the results depend on the processing

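The count of called genes was 3206, and it was 3075 to 3252 under the other scalings, filters and tools tried (3223 by RLE, 3207 by the upper quartile, 3075 by library totals, 3252 in DESeq2, 3165 in limma-voom). Tests against a minimum difference ask for more and gave fewer: 1563 genes (801 higher, 762 lower) beyond 1.5-fold and 760 (372 and 388) beyond 2-fold with glmTreat. The median difference over all genes depended on the scaling: it was 0.02 by TMM, -0.02 by RLE (-0.0218), in DESeq2 (-0.0206) and without the 20 genes with the most reads (-0.0231, a setting chosen after the data were seen), 0.098 by the upper quartile and 0.081 by library totals. The split of calls into 1681 higher and 1525 lower should be read with that shift, which is small beside a 2-fold difference. Leaving out 1 library at a time gave 3024 to 3195 calls, 1592 to 1654 higher and 1426 to 1597 lower. At least 2-fold, it gave 1356 to 1386 calls, 641 to 685 higher and 675 to 730 lower, and a median of -0.0161 to 0.0323. Genes bounded within 1.5-fold numbered 1014 to 1168 and within 2-fold 2632 to 2762. The difference for the 20 genes with the most reads was -6.15 to -4.54 points, for the genes holding 50% of reads 19.5 to 39.2, and for genes detected 22.75 to 32.1, whose lowest adjusted p by exact permutation was 0.045, without LA001-14 on glucose replicate 2. The log2 differences of the 4 identifiers kept their sign and call in every alternative that held them, the tests against 1.5-fold and 2-fold included (both added for these genes after the data were seen, with glmTreat adjusted p of 0.013 for CB0826.t1 and 0.027 for CB2421.t1 at 2-fold), and that of CB2421.t1 went from -7.15 to -6.21 as single libraries were left out and to -7.90 in limma-voom. Same-numbered libraries did not deviate together (correlations of -0.248 to 0.123 over 18 pairs), so the numbers were not taken to pair the samples; a replicate block gave 3119 calls (1646 higher, 1473 lower). A library's best match in another group was its own number in 15 of 36 cases. The lowest level class had the fewest reads and the largest median standard error, 0.38.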
